A study of Mus musculus with 10 samples.

Results

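The colony-stimulating factors (CSFs) and their receptors were followed as a group of 8 genes: the ligand genes Csf1, Csf2 and Csf3, and the receptor genes Csf1r, Csf2ra, Csf2rb, Csf2rb2 and Csf3r. They were taken by name from the 55487 genes of the count tables, and all 8 are present in the tables. The data are RNA sequencing counts of 10 libraries from mammary glands of 10-wk-old female BALB/c mice in diestrus. In Cebpb ΔM mice a Cre recombinase under the Csf1r promoter deletes floxed Cebpb, the gene of the transcription factor C/EBPβ, in Csf1r-expressing myeloid cells. The WT controls carry the floxed Cebpb alleles without Cre, so the Cre transgene is found in the Cebpb ΔM mice only. The genotype labels read wild type and C/EBPb knockdown. Mammary epithelial cells (MECs), obtained by removing cells with markers of other lineages, gave 2 WT libraries (numbers 1 and 3) and 2 Cebpb ΔM libraries (numbers 1 and 3). Macrophages, selected with antibody to F4/80, gave 2 libraries labelled WT (numbers 4 and 5) and 4 labelled Cebpb ΔM (numbers 4 to 7). The sources used here do not say how many mice went into a library, so P-values measure the spread between these libraries, which may be technical.

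CSFs are secreted proteins that keep myeloid cells alive and make them divide and mature. CSF1 acts through the tyrosine kinase receptor CSF1R and is required by most tissue macrophages, including those of the mammary gland, whereas GM-CSF (Csf2) acts through an α chain (Csf2ra) paired with a β chain (Csf2rb), and G-CSF (Csf3) acts through CSF3R, best known on neutrophils. Mice also have Csf2rb2, a near copy of Csf2rb whose product is the β chain of the IL-3 receptor.

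Sequencing depth ranged from 25310926 to 27008166 counts for MECs and from 16935000 to 20174722 counts for macrophages, and 3 counts in a library, taken here as the floor, correspond to 0.111 to 0.177 CPM (counts scaled to a common library total). This floor covers counting error only. All 12 macrophage markers examined were above 3 counts in each macrophage library, and their summed level was 3268 and 5148 CPM in the libraries labelled WT and 6111 to 8060 CPM in those labelled Cebpb ΔM. The macrophage libraries also held RNA of other cells, with 11 luminal epithelial markers at a summed 4186 to 7601 CPM against 24240 to 30200 CPM in MECs. In MECs the macrophage markers summed to 24.6 to 29.0 CPM. Cebpb itself was counted 25 and 28 times in WT MECs and 69 and 42 times in Cebpb ΔM MECs. It was counted 13 and 15 times in the macrophage libraries labelled WT and 16, 13, 5 and 4 times in those labelled Cebpb ΔM, which overlaps and does not check the genotype labels of these libraries. Fewer cells of a type and less RNA per cell cannot be told apart in bulk libraries.

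Csf1r had the highest level in macrophages, and Csf3 and Csf1 had the highest levels in MECs. In TPM, which divides counts by gene length and scales each library to the same sum, Csf1r was the highest of the 8 genes in every macrophage library, with 389 and 582 TPM in WT 4 and 5 and 601, 646, 817 and 694 TPM in Cebpb ΔM 4 to 7. In MECs Csf3 was at 132 and 135 TPM in WT 1 and 3 and at 170.1 and 92.6 TPM in Cebpb ΔM 1 and 3, and Csf1 was at 89.2 and 65.5 TPM in WT and 70.9 and 87.1 TPM in Cebpb ΔM. In WT MECs the next levels were 17.5 and 13.4 TPM for Csf2ra, followed by Csf2rb2 with 6.67 and 5.12 TPM, Csf2rb with 6.48 and 4.12 TPM and Csf1r with 4.48 and 3.88 TPM, and the values of each of these last neighbours overlapped. In Cebpb ΔM MECs Csf1r, at 7.23 and 9.35 TPM, lay above both β chain genes, which were between 3.06 and 5.60 TPM. In WT macrophages Csf1r was followed by Csf3 (382 and 172 TPM), Csf2ra (113 and 158 TPM), the β chain genes (101 to 109 TPM, overlapping), Csf1 (41.3 and 38.6 TPM) and Csf3r (23.9 and 14.4 TPM). Csf2 was lowest there, as it was in the Cebpb ΔM macrophages. In MECs Csf3r lay below Csf2, both within a few counts of 0.

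**Figure D1:**
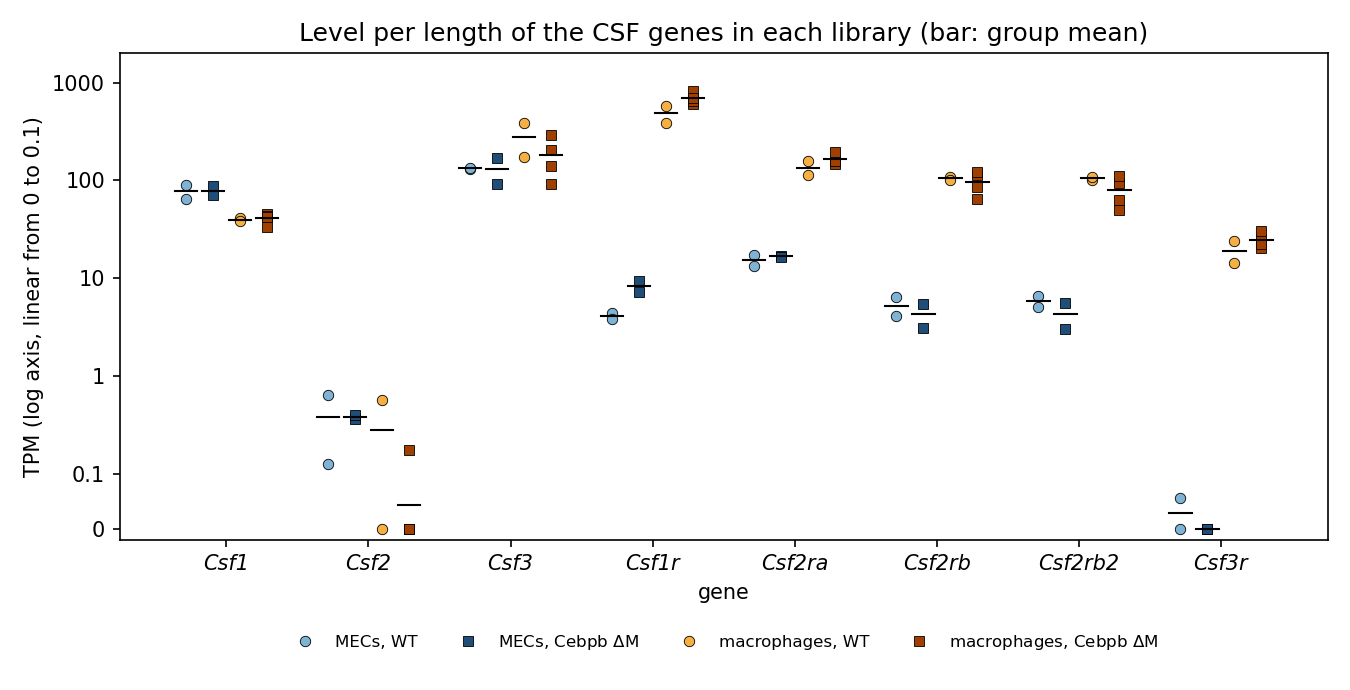
Level of each CSF gene in each library, as TPM on an axis that is logarithmic above 0.1 and linear from 0 to 0.1; points are libraries, circles WT, squares Cebpb ΔM, and bars group means over 2 or 4 libraries. Csf1r lies between 389 and 817 TPM in macrophages and between 3.88 and 9.35 TPM in MECs, while Csf1 lies lower in macrophages than in MECs.

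Whether a CSF gene differed between the cell types was tested over all 10 libraries by the quasi-likelihood (QL) F test of edgeR. P-values were Benjamini–Hochberg (BH) adjusted over the 18323 genes tested, with a threshold of 0.05. Of the 7 CSF genes above the filter on low counts, 6 passed in WT mice, with Csf1r, Csf2ra, Csf2rb, Csf2rb2 and Csf3r higher and Csf1 lower in macrophages. The same 6 genes passed, each in the same direction, in Cebpb ΔM mice. Csf3r entered the test through the macrophage libraries alone, so its call adds nothing to this count, and 5 of the other 6 genes passed. The background was high, with 25.5% of all genes called in WT and 33.7% in Cebpb ΔM mice. Genes called higher in macrophages made up 14.8% and 18.9% of those tested, and genes called lower 10.7% and 14.7%. In WT the libraries of the cell types did not overlap for the 7 CSF genes tested, 6 of them higher in macrophages, as for 65.1% of all genes (33.8% higher, 31.3% lower). In Cebpb ΔM they did not overlap for 6 of the 7, Csf3 being the exception, as for 52.9% of all genes (28.2% higher, 24.6% lower). Csf3r adds nothing to these counts either. Without it, the libraries did not overlap for any of the other 6 genes in WT and for 5 of the 6 in Cebpb ΔM. Cell type, isolation method and sequencing experiment cannot be told apart in this contrast.

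Csf1 (ENSMUSG00000014599, chr3:107741048-107760469 on GRCm38, minus strand) encodes the main ligand of CSF1R. Its level was 186 and 135.5 CPM in WT MECs and 154 and 166 CPM in Cebpb ΔM MECs, with library sizes adjusted by TMM (trimmed mean of M-values). Macrophage libraries had 71.7 and 67.4 CPM in WT and 79.7, 79.8, 66.0 and 86.5 CPM in Cebpb ΔM. Every MEC library was above every macrophage library, and genotypes overlapped within each cell type. Csf1 was 2.31-fold lower in WT macrophages than in WT MECs (log2 fold change −1.21, SE 0.21, QL test adjusted P = 0.00166) and 2.06-fold lower in Cebpb ΔM (log2 fold change −1.04, SE 0.17, adjusted P = 8.69e-04). Luminal epithelial markers moved the same way, 9 of 11 being lower in macrophages in WT and 10 of 11 in Cebpb ΔM. Of the basal epithelial markers, 4 of 8 were lower in each genotype. Genes called lower made up 10.7% of all genes in WT and 14.7% in Cebpb ΔM. None of these epithelial markers was at 0 in a macrophage library, and the part of epithelial RNA in the Csf1 level of macrophage libraries was not tested.

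Csf3 (ENSMUSG00000038067, chr11:98701263-98703629, plus strand), the gene of G-CSF, was detected in both cell types. Its level was 73.7 and 74.7 CPM in WT MECs and 99.1 and 47.4 CPM in Cebpb ΔM MECs. In macrophages it was 177 and 80.2 CPM in WT and 66.1, 100.2, 154.5 and 50.3 CPM in Cebpb ΔM. The WT cell types did not overlap (74.7 CPM in the highest MEC and 80.2 CPM in the lowest macrophage library), and the Cebpb ΔM cell types did. The log2 fold change of macrophages over MECs was 0.80 in WT (SE 0.52, QL test adjusted P = 0.296) and 0.34 in Cebpb ΔM (SE 0.46, adjusted P = 0.606).

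Csf2 (ENSMUSG00000018916, chr11:54247271-54249667, minus strand), the gene of GM-CSF, was at the floor. The counts were 1 and 5 in WT MECs and 3 and 3 in Cebpb ΔM MECs, and 3 and 0 in WT macrophages and 0, 1, 0 and 0 in Cebpb ΔM macrophages. It stayed below the filter of over 1 CPM in at least 2 libraries in every comparison, so no test was made, and a difference in Csf2 was not detectable at this depth. Its exons share 96 bases with Gm12223 on the opposite strand.

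Csf1r (ENSMUSG00000024621, chr18:61100598-61132149, plus strand) showed the largest difference between cell types of the CSF genes counted in every library. It was at 10.2 and 8.78 CPM in WT MECs and 738 and 1111 CPM in WT macrophages, a 97.2-fold difference (log2 fold change 6.60, SE 0.33, QL test adjusted P = 4.86e-07). In Cebpb ΔM it was 78.2-fold higher in macrophages (log2 fold change 6.29, SE 0.31, adjusted P = 3.06e-07). Set against its ligand, the ratio of Csf1 to Csf1r in TPM was 19.9 and 16.9 in WT MECs and 9.81 and 9.31 in Cebpb ΔM MECs, but 0.106 and 0.0663 in WT macrophages and 0.0407 to 0.0760 in Cebpb ΔM macrophages. Ligand transcripts outnumbered receptor transcripts in every MEC library and receptor transcripts outnumbered ligand transcripts in every macrophage library. Csf1r shares 873 exon bases with Hmgxb3 on the opposite strand. The authors counted by strand, and Hmgxb3 was at 44.6 to 47.0 CPM in WT MECs and 45.6 to 60.8 CPM in WT macrophages, so it did not follow Csf1r.

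Csf2ra (ENSMUSG00000059326, chr19:61223957-61228429, minus strand), the ligand-specific chain of the GM-CSF receptor, was counted in both cell types. It was at 19.9 and 15.1 CPM in WT MECs, 20.2 and 17.4 CPM in Cebpb ΔM MECs, 107 and 149.8 CPM in WT macrophages and 139.5, 158, 169 and 216 CPM in Cebpb ΔM macrophages. The cell types did not overlap. Its excess in macrophages was the smallest of the receptor genes, 7.33-fold in WT (log2 fold change 2.87, SE 0.27, QL test adjusted P = 3.06e-05) and 9.06-fold in Cebpb ΔM (log2 fold change 3.18, SE 0.26, adjusted P = 7.08e-06).

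Csf2rb (ENSMUSG00000071713, chr15:78325752-78353847, plus strand) encodes the β chain shared by the receptors of GM-CSF, IL-3 and IL-5, and Csf2rb2 (ENSMUSG00000071714, chr15:78282507-78305721, minus strand) lies beside it. How far reads can tell these genes apart matters for their counts, so a coding stretch of each, the 120 aligned bases in 1 exon with the most differences, is shown from GENCODE M21 transcripts with the 16 differing bases in capitals.
Csf2rb: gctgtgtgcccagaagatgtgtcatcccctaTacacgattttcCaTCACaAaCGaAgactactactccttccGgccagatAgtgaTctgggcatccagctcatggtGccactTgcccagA
Csf2rb2: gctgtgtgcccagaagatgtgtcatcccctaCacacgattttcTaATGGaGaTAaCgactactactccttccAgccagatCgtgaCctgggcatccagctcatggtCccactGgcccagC
The stretches lie at chr15:78338867-78338986 (plus strand) and chr15:78294345-78294464 (minus strand) on GRCm38. Over 2628 aligned coding bases the transcripts were 95.2% identical. Of the windows of 150 bases, the read length, 3.58% of the Csf2rb transcript and 3.59% of the Csf2rb2 transcript occur unchanged in the other, and the longest shared run is 242 bases. Reads within such runs cannot be told apart, and pairs whose mapping quality was under 10 were not counted by the authors, so both levels carry this uncertainty.

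Both β chain genes were higher in macrophages, and they lay near each other in TPM but not in counts. Also higher in macrophages, in both genotypes, were all 6 endothelial markers, all 4 tested mast cell and basophil markers and 6 of 7 dendritic cell markers. Of all genes, 14.8% were higher in WT and 18.9% in Cebpb ΔM. The 4 mast cell and basophil markers, and the dendritic cell markers other than Zbtb46, were counted 0 to 7 times in MEC libraries. They entered the test through macrophage libraries alone, so their calls add nothing. The part of these cells in the β chain levels was not tested. Csf2rb was at 18.6 and 11.7 CPM in WT MECs and 261 and 242 CPM in WT macrophages, which is 16.5-fold higher (log2 fold change 4.05, SE 0.40, QL test adjusted P = 3.48e-05), and 21.4-fold higher in Cebpb ΔM (log2 fold change 4.42, SE 0.39, adjusted P = 1.08e-05). Csf2rb2 was at 12.5 and 9.51 CPM in WT MECs and 157 and 171 CPM in WT macrophages, which is 14.9-fold higher (log2 fold change 3.89, SE 0.42, adjusted P = 7.01e-05), and 17.5-fold higher in Cebpb ΔM (log2 fold change 4.13, SE 0.41, adjusted P = 2.53e-05). The ratio of Csf2rb2 to Csf2rb in TPM was 0.745 to 1.08 over the 6 macrophage libraries and 0.977 to 1.24 over the 4 MEC libraries. TPM here divides by all annotated exon bases, 7277 nt for Csf2rb and 4740 nt for Csf2rb2. The transcripts compared above are nearer in length, 4764 and 4740 nt. In counts Csf2rb2 made up 32.7% to 44.7% of both genes together, so the near equality in TPM rests on the lengths used. The Cebpb ΔM macrophage libraries spread widely, from 154 to 335 CPM for Csf2rb and from 78.3 to 196 CPM for Csf2rb2. Within these 4 libraries the order from lowest to highest was 4, 7, 5 and 6 for both genes.

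**Figure D2:**
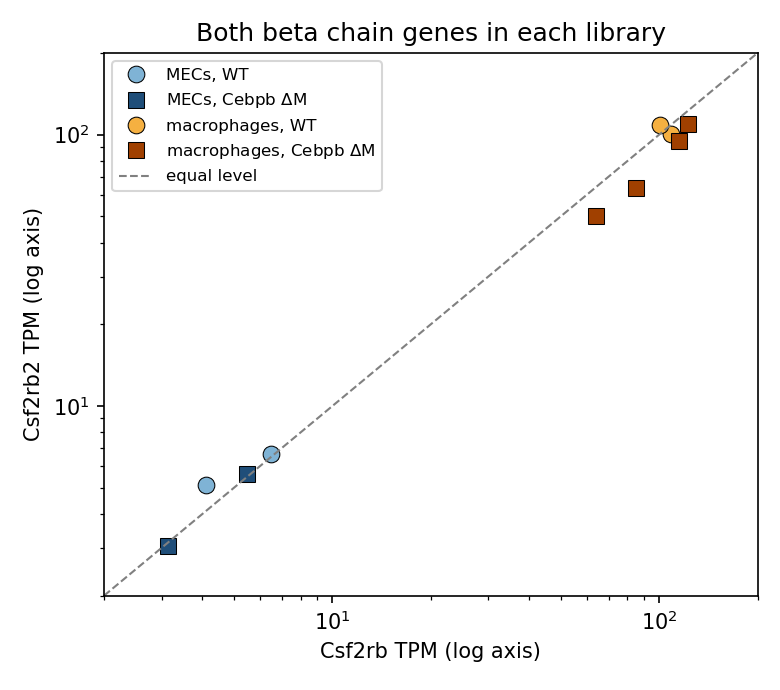
Csf2rb against Csf2rb2 in each library, both as TPM on log axes; circles are WT, squares Cebpb ΔM, and the dashed line marks equal level. The libraries lie near the line, from 3.06 TPM of Csf2rb2 in an MEC library to 110 TPM in a macrophage library, with 0.745 to 1.24 TPM of Csf2rb2 for each TPM of Csf2rb. TPM divides by exon lengths of 7277 nt for Csf2rb and 4740 nt for Csf2rb2, and the distance from the line rests on these lengths.

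Csf3r (ENSMUSG00000028859, chr4:126024550-126044440, plus strand), the G-CSF receptor, was the only receptor gene without a measurable level in MECs. It was counted 0 and 2 times in WT MECs and 0 and 0 times in Cebpb ΔM MECs, and 564 and 361 times in WT macrophages and 484, 655, 756 and 515 times in Cebpb ΔM macrophages. The ratio of CPM over summed libraries was 630.1 in WT (95% exact binomial interval 174 to 5211, counting error only), and in Cebpb ΔM the lowest macrophage library was at least 224-fold higher than 3 counts in the smaller MEC library. Since it passed the filter on low counts only through the group where it was high, no P-value is given for its difference between cell types. Of 9 neutrophil markers, 2 to 5 were above 3 counts in each macrophage library, with a summed level of 37.7 to 305 CPM against 407.5 to 1704 CPM in MECs, most of it from the lactoferrin gene Ltf, which is also expressed by mammary epithelium. Ly6g was at 0 counts in all 10 libraries and Camp at 0 in the macrophage libraries, where S100a8 was counted 0 to 10, S100a9 0 to 17, Cxcr2 0 to 13 and Ngp 0 to 12 times. Retnlg was counted 12 to 120 times there, and Mmp8 18 and 72 times in WT and 0 to 4 times in Cebpb ΔM. The part of neutrophil RNA in the Csf3r level was not tested. The ligand gene Csf3 was counted 1219 to 2437 times in MEC libraries that held at most 2 counts of the receptor.

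**Figure D3:**
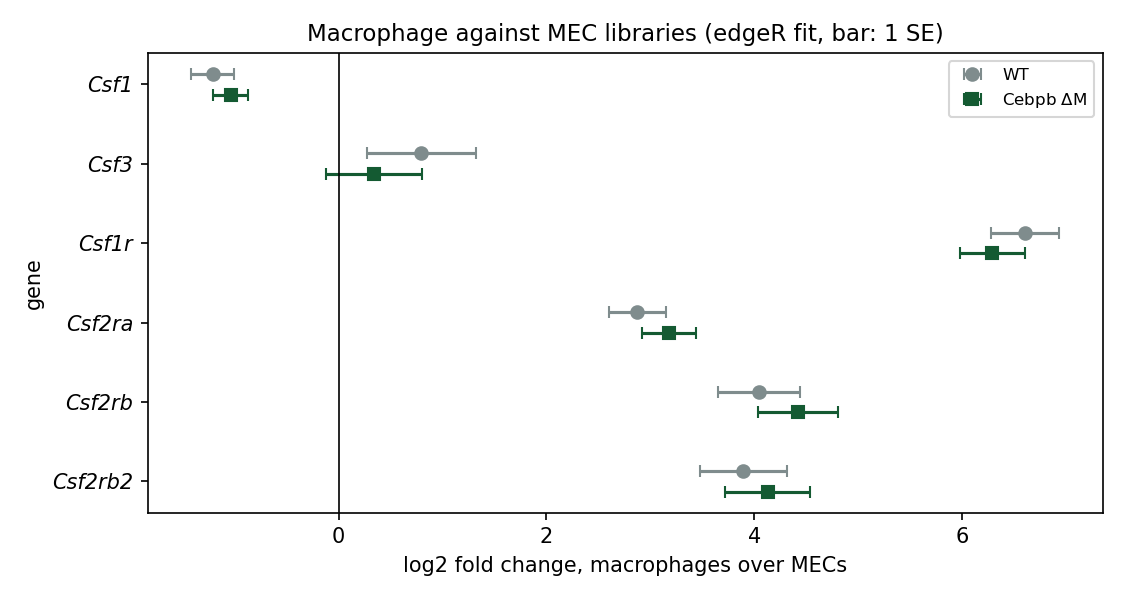
Log2 fold change of macrophages over MECs for the 6 CSF genes with counts in both cell types, in WT (circles) and Cebpb ΔM (squares), with bars of 1 SE from edgeR. Csf1 lies left of 0 at −1.21 and −1.04, Csf3 is within 2 SE of 0, and the 4 receptor genes lie between 2.87 and 6.60.

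RefSeq promoter windows on GRCm38.p6 were at hand for 5 of the 8 genes (Csf1, Csf2, Csf2ra, Csf2rb2 and Csf3r), and the 250 bases before each start were searched on both strands for GAGGAA, a core bound by the myeloid factor PU.1, and for TTGCNNAA, a C/EBP core. GAGGAA was found in the windows of all 3 receptor genes and in neither ligand window, against 23.1% of the 27025 windows of this length. TTGCNNAA was found for Csf2 alone, against 9.55% of windows, and no window of the CSF genes held both. The receptor matches are shown because these genes were higher in macrophages in both genotypes, with the matched bases in capitals and 5′ to 3′ along the gene.
Csf2ra: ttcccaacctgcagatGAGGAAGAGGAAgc
Csf2rb2: ctctgtgtctgcTTCCTCcagagaagtcag
Csf3r: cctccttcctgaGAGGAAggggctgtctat
They lie at chr19:61228419-61228448 (minus strand), chr15:78305871-78305900 (minus strand) and chr4:126024561-126024590 (plus strand). Csf2ra holds GAGGAA 2 times side by side, and the Csf2rb2 match is on the opposite strand. The gene as annotated for counting starts 109 bases before the RefSeq start for Csf3r, so its match lies inside that gene. For Csf2ra it starts 11 bases before the RefSeq start. The first Csf2ra match (14 to 9 bases before the RefSeq start) spans that point, and the second (8 to 3 bases) lies inside the gene. For Csf2 the counted gene starts 232 bases after the RefSeq start, so its TTGCNNAA match lies outside the 250 bases before that gene. A match of letters describes the window and shows no binding.

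The deletion comparison asks whether loss of Cebpb in Csf1r-expressing cells was accompanied by altered CSF genes. None of the 6 CSF genes tested in MECs and none of the 7 tested in macrophages passed the QL test. At the same threshold 0.0510% of 15698 genes were called in MECs (0.0446% higher and 0.00637% lower in Cebpb ΔM) and 0% of 17772 in macrophages, where 1534 genes had an unadjusted P under 0.05. The macrophage counts by the likelihood ratio test and DESeq2 were 138 and 201 genes, again with no CSF gene.

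In MECs the widest genotype difference of the group was that of Csf1r itself. It was counted 423 and 503 times in Cebpb ΔM 1 and 3 and 253 and 216 times in WT 1 and 3, or 17.2 and 19.5 CPM against 10.2 and 8.78 CPM. The genotypes did not overlap, as for 28.2% of all genes tested in MECs (13.6% higher, 14.5% lower). Csf1r was 1.96-fold higher in Cebpb ΔM (log2 fold change 0.97, SE 0.26) and ranked 198 among all genes by QL test P, and its adjusted P of 0.276 missed the threshold. Over the 11 alternatives the log2 fold change stayed between 0.85 and 1.09 and the adjusted P between 0.0933 and 1. With 2 libraries against 2, an exact permutation test cannot give a two-sided P below 0.333.

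The summed level of the macrophage markers did not separate these genotypes. It was 24.6 and 28.8 CPM in Cebpb ΔM MECs and 29.0 and 24.8 CPM in WT MECs, and Adgre1, the gene of F4/80, was counted 0 and 0 times in Cebpb ΔM and 13 and 2 times in WT. Mrc1, the mannose receptor of macrophages, was counted 9 and 10 times in Cebpb ΔM and 2 and 2 times in WT. For each 1000 CPM of summed macrophage markers, MEC libraries had 353 and 354 CPM of Csf1r in WT and 698 and 678 CPM in Cebpb ΔM, whereas macrophage libraries had 188 to 226 CPM. Most of the marker level in MECs came from Cd68 (5.90 to 7.80 CPM) and Mertk (9.71 to 14.0 CPM). The part of macrophage RNA in the Csf1r level of MECs was not tested. Hmgxb3, which overlaps Csf1r, was at 39.0 and 58.6 CPM in Cebpb ΔM MECs and 47.0 and 44.6 CPM in WT, so it did not separate the genotypes.

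**Figure D4:**
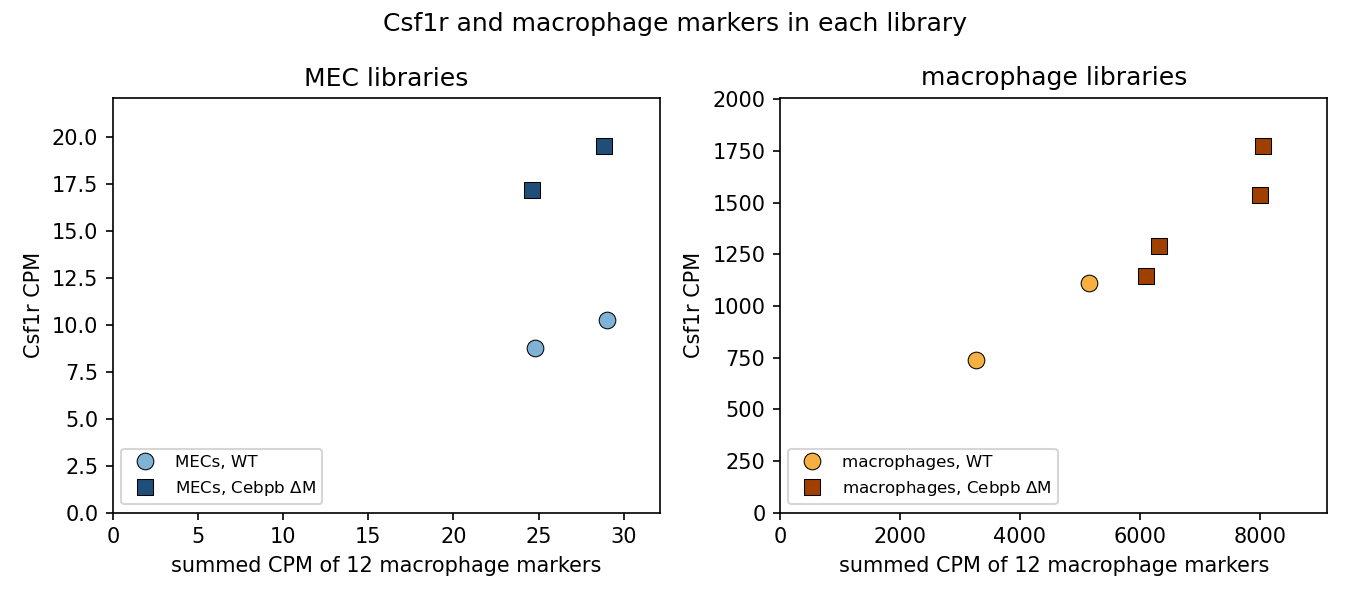
Csf1r CPM against the summed CPM of 12 macrophage markers, with MEC libraries on the left and macrophage libraries on the right; circles are WT, squares Cebpb ΔM, each point is 1 library and all axes start at 0. In MECs the Cebpb ΔM libraries (17.2 and 19.5 CPM) lie above the WT libraries at the same marker level, and in macrophages Csf1r and the markers are both higher in the libraries labelled Cebpb ΔM.

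In macrophages Csf1r was also higher in the libraries labelled Cebpb ΔM, at 1147, 1289, 1772 and 1537 CPM against 738 and 1111 CPM in those labelled WT. The groups did not overlap, as for 18.5% of all genes tested in macrophages (10.4% higher, 8.10% lower). Its log2 fold change of 0.61 (SE 0.24) had a QL test adjusted P of 0.537. Here the macrophage markers moved with it: all 12 had positive log2 fold changes with a median of 0.63, none past the threshold, against a median of 0.00 over all genes. Summed levels of other markers moved with the labels too. The 11 luminal epithelial markers summed to 7601 and 7553 CPM in WT and 4186 to 5743 CPM in Cebpb ΔM. Of these, 3 had positive log2 fold changes (median −0.34). The 7 dendritic cell markers summed to 172 and 263 CPM in WT and 291 to 583 CPM in Cebpb ΔM, and neither sum overlapped. Of the 7, 5 had positive log2 fold changes (median 0.14), none past the threshold. Most of their sum came from Cd209a (log2 fold change 0.995) and Siglech (1.81). All 8 basal epithelial markers had positive log2 fold changes (median 0.83), with summed levels of 1349 and 934 CPM in WT and 814 to 3190 CPM in Cebpb ΔM, which overlap. The part of these cells in the Csf1r difference was not tested. Per 1000 CPM of summed macrophage markers Csf1r was 226 and 216 CPM in WT and 188, 204, 220 and 192 CPM in Cebpb ΔM, which overlaps. With the log2 summed marker level as a covariate, an alternative chosen after the data were seen, the log2 fold change turned to −0.22 (SE 0.27, adjusted P = 0.781).

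The other CSF genes showed no genotype difference beyond the spread of the libraries. In MECs the log2 fold changes of Cebpb ΔM over WT were 0.02 for Csf1 (SE 0.22), −0.01 for Csf3 (SE 0.29), 0.13 for Csf2ra (SE 0.26), −0.33 for Csf2rb (SE 0.32) and −0.47 for Csf2rb2 (SE 0.32), with a QL test adjusted P of 0.9997 for each. The β chain genes thus had values of the same sign in MECs, 9.39 and 14.4 CPM of Csf2rb in Cebpb ΔM against 18.6 and 11.7 CPM in WT, and both overlapped. In macrophages the log2 fold changes were 0.14 for Csf1 (SE 0.17), −0.50 for Csf3 (SE 0.46), 0.39 for Csf2ra (SE 0.23), −0.01 for Csf2rb (SE 0.28), −0.29 for Csf2rb2 (SE 0.32) and 0.47 for Csf3r (SE 0.28), with QL test adjusted P-values between 0.682 and 0.998. With the marker covariate, which cannot be told apart from genotype here, Csf2ra turned to −0.32 and Csf3 to 0.45. Without WT library 4, Csf3 was 0.18. Endothelial markers, which were at 917.5 to 2056 CPM in macrophage libraries and 91.4 to 132 CPM in MECs, followed the order of the β chain genes among the Cebpb ΔM macrophage libraries (917.5, 1323, 1758 and 2056 CPM in 4, 7, 5 and 6), and their part in those levels was not tested.

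**Figure D5:**
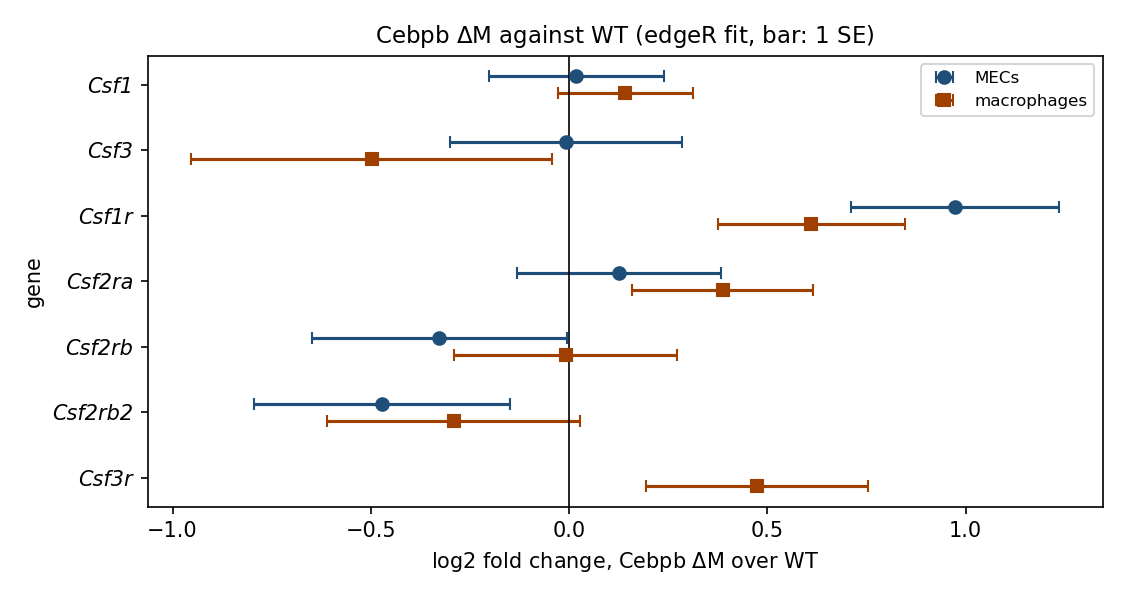
Log2 fold change of Cebpb ΔM over WT for the CSF genes above the filter, in MECs (circles) and macrophages (squares), with bars of 1 SE from edgeR. Csf1r lies right of 0 in both cell types (0.97 and 0.61), and none of the genes passed the adjusted threshold.

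An interaction term in the fit of 10 libraries tested the difference of genotype effects between MECs and macrophages. None of the 7 CSF genes passed, and 0% of 18323 genes were called, where 951 had an unadjusted P under 0.05 and the likelihood ratio test and DESeq2 called 53 and 27. For Csf1r the interaction was −0.31 (SE 0.34) on the log2 scale with a QL test adjusted P of 1. The lowest P was that of Csf3r (unadjusted P = 0.0811, adjusted P = 0.976), a gene that rests on 2 counts in MECs.

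Other genes of the pathway were read from lists of 50 genes, of which 46 were tested across cell types. In WT 23 were higher and 2 lower in macrophages, against 14.8% and 10.7% of all genes, and the median log2 fold change was 0.87 over the lists and 0.06 over all genes. In Cebpb ΔM 24 were higher and 3 lower, against 18.9% and 14.7% of all genes, with a median of 0.74 against 0.07. Genes under 1 CPM in MECs, such as Tyrobp, Spi1 and Inpp5d, entered these counts through the macrophage libraries alone. Between genotypes 0 of 41 passed in MECs and 0 of 46 in macrophages or in the interaction.

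Il34, the second ligand of CSF1R, ran opposite to Csf1 in WT. It was at 12.9 and 9.95 CPM in WT MECs and 32.9 and 28.6 CPM in WT macrophages (log2 fold change 1.43, SE 0.35, QL test adjusted P = 0.0123), a call lost without WT MEC library 3 (adjusted P = 0.104). In Cebpb ΔM it was at 15.5 and 14.3 CPM in MECs and 13.2, 28.2, 28.3 and 19.8 CPM in macrophages, which overlap (log2 fold change 0.59, SE 0.30, adjusted P = 0.163), and it passed there without macrophage library 4 (adjusted P = 0.0292). The difference between these effects was not past the threshold (interaction −0.84, SE 0.45, adjusted P = 0.978). Sdc1, the syndecan that also binds IL-34, was lower in macrophages in WT (log2 fold change −1.24, SE 0.19, adjusted P = 9.02e-04) and in Cebpb ΔM (−1.65, SE 0.16, adjusted P = 2.18e-05), whereas Ptprz1 did not pass.

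Of the cytokines that share the β chain, Il3 was at 0 counts in all 10 libraries, which allows up to 3 counts in each, and Il5 was counted 0 to 9 times. The α chain gene Il3ra was higher in Cebpb ΔM macrophages (log2 fold change 2.37, SE 0.43, QL test adjusted P = 0.00152) and just missed the threshold in WT (log2 fold change 1.28, SE 0.44, adjusted P = 0.0558). These effects did not differ past the threshold (interaction 1.09, SE 0.59, adjusted P = 0.978), and Il5ra stayed below the filter. Of the sheddases that release CSF1 and CSF1R from the cell surface, Adam17 was higher in macrophages in WT (log2 fold change 0.96, SE 0.22, adjusted P = 0.00808) and Cebpb ΔM (1.12, SE 0.19, adjusted P = 0.00124), and Adam10 did not pass.

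Of 12 kinases and adaptors downstream of the receptors, 7 were higher in macrophages in WT, where 14.8% of all genes were. In Cebpb ΔM, with 18.9% of all genes higher and 14.7% lower, 8 were higher and 1, Src, was lower (log2 fold change −1.55, SE 0.38, QL test adjusted P = 0.00918). The largest difference was that of Tyrobp, the DAP12 adaptor that works with CSF1R, with 91.3 ± 0.607 CPM (SD, n = 2) in WT macrophages against 0.365 ± 0.173 CPM (SD, n = 2) in WT MECs. Of 10 inhibitors 4 were higher in WT and 3 in Cebpb ΔM (14.8% and 18.9% of all genes). The largest difference among them was that of Inpp5d, the SHIP1 phosphatase (log2 fold changes 7.38, SE 0.44, and 7.97, SE 0.45). Inpp5d was under 1 CPM in every MEC library and passed the filter through macrophage libraries alone. Its call therefore adds nothing to these counts, and no P-value is given for it. Of 8 JAK and STAT genes 4 were higher in each genotype, against the same shares of all genes.

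Of 10 tested myeloid transcription factors 6 were higher and 1 lower in WT macrophages, and 7 were higher and 1 lower in Cebpb ΔM. Of all genes, 14.8% were higher and 10.7% lower in WT, and 18.9% and 14.7% in Cebpb ΔM. Spi1, the gene of PU.1, was counted 3 times in all in WT MECs and 1214 times in WT macrophages, a CPM ratio of 551 (95% exact binomial interval 188 to 2677). It was counted 1 time in Cebpb ΔM MECs against 6103 times in Cebpb ΔM macrophages, a CPM ratio of 4311 (interval 774 to 170300). Both intervals are from summed libraries and cover counting error only. Runx1 was the gene that was lower (log2 fold changes −0.99, SE 0.24, QL test adjusted P = 0.0124, and −1.04, SE 0.20, adjusted P = 0.00233).

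Lastly, for each CSF gene above the filter the 3 genes most like it were found by Pearson's r of log2 CPM over the 10 libraries among 18323 genes. These values describe libraries that share cell type, depth and experiment, and high r arises for many genes that separate the cell types. Csf1r was most like Mrc1 (r = 0.999), Pf4 (r = 0.998) and Arrb2 (r = 0.998). Within the 6 macrophage libraries r was 0.974 for Mrc1. Csf2ra was most like Tmem37 (r = 0.999), Pid1 and Slc16a10 (r = 0.998 and 0.997), and Csf3r was most like Bank1, the lysozyme gene Lyz2 and Ms4a6c (r = 0.998 for each), with r of 0.644, 0.749 and 0.810 within the 6 macrophage libraries. Csf2rb2 was most like Csf2rb (r = 0.996), Meg3 (r = 0.996) and Ackr1, a chemokine receptor of venular endothelium (r = 0.995). Csf2rb was most like St3gal6 (r = 0.998) and the endothelial genes Pecam1 and Mmrn2 (r = 0.997 for each), with 0.972 for Pecam1 within the 6 macrophage libraries. Csf1 was most like Gm10167 (r = 0.986), Gm9794 (r = 0.985) and the ribosomal protein gene Rps29 (r = 0.983). Csf3 had no near match, with r of 0.878 for 4833419F23Rik, 0.870 for Trib2 and 0.842 for Nup93.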

How the data were processed

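Libraries and groups are those of the labels. The authors trimmed the reads with Trimmomatic, mapped them to GRCm38 with HISAT2 and counted read pairs per gene with featureCounts (version 1.6.2) on Ensembl release 100, by reverse strand, with both ends mapped and a mapping quality of at least 10. The deposited values are whole-number counts without normalization, at the depths given with the results, and Smart-Seq low-input libraries carry no molecular identifiers.

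From the counts, a fit kept genes of 300 nt or longer that passed 1 CPM in 2 or more of its libraries. MECs and macrophages were fitted separately, and cell types and the interaction over 10 libraries, by edgeR (4.0.16, run in R 4.3.3), TMM scaling, the QL test and BH adjustment over all genes tested. The study's methods name the likelihood ratio test, run here as an alternative beside DESeq2 (version 1.42.0), RLE scaling, other filters, a replicate block and each library left out. Log2 CPM used a prior count of 2. Tests were tried on simulated data. Symbols came from GENCODE M21 for 55141 of the genes, promoters from RefSeq and alignments from Biopython (version 1.88).

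All CSF genes, Cebpb, Il34, the most like genes, and per pathway list the gene with the largest called change in each direction are named. For 1 list that gene is not reported here. Genes and lists were chosen with earlier results of these data known. Adgre1, Cd68, Mertk, Lyve1, Cd163, Zbtb46, Hmgxb3, Ptprz1, Adam10 and the neutrophil markers were singled out after their values were seen. The MEC libraries numbered 2 were not analysed here.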

Additional observations from a re-analysis of the deposited data

Results flagged for a closer look

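Among the Cebpb ΔM macrophage libraries, the groups of 4 in which an outlying library can be tested, Csf2 stood apart, with library 5 at a Dixon's ratio of 1 because it held 1 count and the other 3 libraries held 0. At 1 count this lies under the floor of 3 counts, and chance alone sets apart a library in about 1 in 20 groups. No genotype effect on a CSF gene differed between the cell types in the interaction test.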

How the results depend on the processing

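The number of CSF genes called was the same as reported in all 74 alternatives over the comparisons, 6 in each cell type contrast and 0 in the genotype contrasts and the interaction. Counts over all genes moved. In MECs the 8 genes became 179 with the likelihood ratio test, 161 with DESeq2, 67 without a filter, 0 with all 10 libraries in one fit, and 2 to 337 with a library left out. In macrophages 0 became 138 with the likelihood ratio test and 201 with DESeq2, and for the interaction 53, 27 and 0 to 1 with a library left out. Between cell types, leaving out a library gave 2456 to 4846 genes in WT (2456 without WT MEC library 3, 2733 without WT MEC library 1 and 3041 without WT macrophage library 5) and 3496 to 6556 in Cebpb ΔM (3496 without Cebpb ΔM MEC library 1). Blocking on the replicate number gave 205 called genes in MECs, 12 in macrophages and 1 for the interaction, and it changed no call of a CSF gene. Same-numbered libraries deviated from their group means with Pearson's r of 0.106 in MECs and of 0.129 and −0.086 in macrophages across genes. With 2 WT libraries the deviations mirror each other, so r for unlike numbers is fixed at the opposite sign. These values therefore cannot show whether same-numbered libraries share more than a number. No paired analysis was possible for the cell type contrasts because MEC and macrophage libraries share no numbers.

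Some log2 fold changes that had not passed the threshold turned sign. In MECs Csf3 was 0.006 with filterByExpr and −0.603 to 0.411 with a library left out, Csf1 −0.005 with 10 libraries in one fit and −0.166 to 0.253, Csf2rb −0.699 to 0.032 and Csf2ra −0.035 to 0.328. In macrophages Csf2rb was 0.016 in the fit of 10 libraries and −0.168 to 0.167, and Csf3 −0.960 to 0.183. With the macrophage marker covariate, added after the data were seen and not overlapping between genotypes, Csf3 was 0.454, Csf1r −0.219 and Csf2ra −0.322. In Cebpb ΔM cell types Csf3 was −0.097 to 0.969. In the interaction Csf2rb2 was −0.050 with the block, and with a library left out Csf3 was −0.950 to 0.197, Csf2rb2 −0.069 to 0.614, Csf1 −0.077 to 0.382 and Csf2rb −0.001 to 0.710. The cause was not tested. With 2 libraries in 3 of the 4 groups, leaving 1 out assumes that the lone library varies like the others. Levels per length kept their order within a library in TMM-scaled RPKM, which divides the same counts by the same lengths.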
